A study of Mus musculus with 10 samples.

Results

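The 6 conventional actin genes, Actc1, Acta1, Acta2, Actg2, Actb and Actg1, were examined in mouse cardiomyocytes, the cells whose contraction makes the heart beat. They were taken by gene symbol from the authors' deposited table, a comparison of the study's groups that lists 23337 genes, and all 6 were present. All 6 also had an adjusted p-value, as did 14056 genes in all. The cells came from wild-type mice injected on postnatal day 1 with 5e+08 viral genomes per gram, and cells were collected on postnatal day 14. The GFP group received AAV9-cTNT-GFP, an adeno-associated virus that makes green fluorescent protein. The dnMKL1 group received AAV9-cTNT-dnMKL1-GFP, which carries GFP together with a dominant-negative form of MKL1 (also called MRTF-A). Both groups hold 5 biological replicates, and in both the cardiac troponin T promoter (cTNT) drives the transgene in cardiomyocytes that keep their own Mkl1 gene. Cells were sorted by fluorescence, and each library is bulk RNA of such cells, so fewer cells of a type and less RNA per cell cannot be told apart.

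Actin polymerises into filaments. The striated muscle isoforms Actc1 (cardiac) and Acta1 (skeletal) build the thin filaments on which myosin pulls, the smooth muscle isoforms Acta2 and Actg2 serve contraction in vessels and gut, and the cytoplasmic isoforms Actb and Actg1 form the cytoskeleton of nearly all cells. Acta2 and Acta1 are also made in the developing heart, before Actc1 comes to dominate. Actin is tied to MKL1 itself: unpolymerised actin binds MKL1 and keeps it out of the nucleus, and free MKL1 activates serum response factor (SRF), which binds CArG boxes in the promoters of several actin genes.

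The data are 1 value per gene and not per library. The base mean is the average normalized count over all 10 libraries, and the log2 fold change (dnMKL1 over GFP) comes with a standard error (SE) that carries the spread between libraries. A base mean and a fold change together give the mean of each group, called the implied mean, which has no SD of its own. The 95% intervals were computed from the deposited SE. The direction was read from Mkl1, for which the authors' deposited table gives 9.80 (SE 0.15). Size factors, recovered from genes with a single read, ran from 0.660 to 1.28 in GFP and from 0.809 to 1.58 in dnMKL1 libraries, and the group means did not differ beyond that range (p = 0.532, two-sided exact permutation test). Estimated totals lay between 8802947 and 17228265 counts per library. Fold changes depend on how the authors scaled the libraries, and with their scaling the median was 0.0040 on the log2 scale over 11914 tested genes whose base mean reached 10.

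Actc1, Actg1 and Acta2 were lower in dnMKL1 cardiomyocytes, and none of the 6 genes was called higher. Actc1 stood at 34.1% of its GFP level (95% interval 27.9 to 41.6), Actg1 at 36.1% (29.0 to 44.9) and Acta2 at 47.8% (33.9 to 67.5). Actb, Acta1 and Actg2 did not pass the test. Thus 3 of 6 actin genes were called lower at an adjusted p-value under 0.05, where 17.4% of all tested genes were called lower. The share called in either direction was 34.1%. That background rose with expression: among genes whose base mean reached 1000, 42.1% were lower and 55.8% called in all, and among those reaching 10000, 70.7% were lower, 3.57% higher and 74.3% called in all. Under total-count scaling, which sets the summed implied means of both groups equal and adds 0.29 to every log2 fold change, the same 3 genes were called lower.

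**Figure D1:**
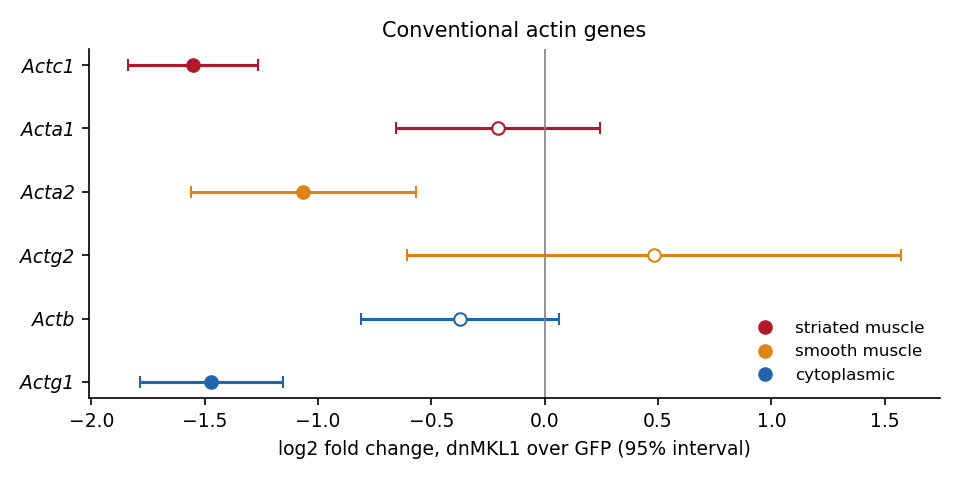
Log2 fold change (dnMKL1 over GFP) of each actin gene on the horizontal axis, with the 95% interval computed from the deposited SE as a bar; filled points have an adjusted p-value under 0.05 and colours give the isoform class. Actc1, Acta2 and Actg1 lie below 0 with their whole interval, while the intervals of Acta1, Actg2 and Actb cross 0.

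**Figure D2:**
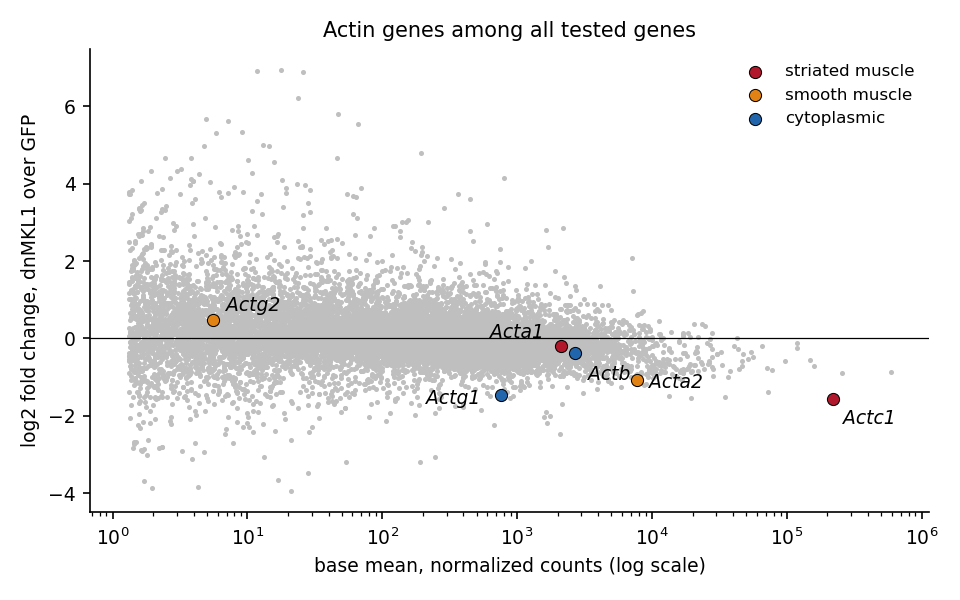
Log2 fold change (dnMKL1 over GFP) against base mean in normalized counts on a log scale; each grey point is 1 tested gene other than Mkl1, and the 6 actin genes are coloured by isoform class. Actc1 lies at the right edge, with a base mean of 218748, and below the other genes of its range.

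Promoter sequence was examined because MKL1 acts through SRF, whose CArG box is recognisable in DNA. Of the 6 genes, 4 had a promoter window in the RefSeq table (GRCm38.p6), and the 250 bases before the start site were searched on both strands. A CArG box was found in 3 of them (Actc1, Acta1 and Actg1), against 1.47% of 32851 promoter windows of the same length. Counting also degenerate boxes, in which 1 of the 6 core letters is G or C, all 4 held a match, against 8.59% of windows. A match is a description of the letters and no evidence of binding. The Actc1, Acta1 and Actg1 promoters are shown 5′ to 3′ on the coding strand, which is the minus strand in each, cut before any GENCODE exon of the gene, with CArG boxes and degenerate boxes in capitals.
Actc1, chr2:114052888-114053125: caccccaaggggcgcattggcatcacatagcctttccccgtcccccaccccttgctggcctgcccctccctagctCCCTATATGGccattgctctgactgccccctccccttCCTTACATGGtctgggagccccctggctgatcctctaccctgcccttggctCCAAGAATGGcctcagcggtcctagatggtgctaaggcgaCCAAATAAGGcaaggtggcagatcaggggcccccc
Acta1, chr8:123894776-123895025: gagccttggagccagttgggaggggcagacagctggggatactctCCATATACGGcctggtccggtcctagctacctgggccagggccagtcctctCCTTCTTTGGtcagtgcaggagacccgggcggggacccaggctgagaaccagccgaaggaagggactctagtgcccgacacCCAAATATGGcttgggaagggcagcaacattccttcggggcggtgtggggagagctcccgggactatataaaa
Actg1, chr11:120348543-120348745: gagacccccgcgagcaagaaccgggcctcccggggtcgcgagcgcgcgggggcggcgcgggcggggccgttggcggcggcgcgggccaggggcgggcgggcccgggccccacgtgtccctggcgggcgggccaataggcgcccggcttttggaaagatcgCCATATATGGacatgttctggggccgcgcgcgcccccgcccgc
Counted back from the base before the start site, the Actc1 box CCAAATAAGG begins 47 bases upstream, the Acta1 box CCAAATATGG begins 73 bases upstream and the Actg1 box CCATATATGG begins 90 bases upstream. Actc1 also holds 3 degenerate boxes and Acta1 holds 2, while Actg1 has none. By GENCODE the Actc1 gene reaches to 114053548, so the stretch printed for it lies inside that span, outside its exons. Acta2 has no CArG box in its window but 2 degenerate ones, CCCTATATGG starting 84 bases and CCTTGTTTGG starting 34 bases before the start site at position 34255373 of chromosome 19. GENCODE annotates this stretch as part of an exon of another Acta2 transcript, so only the boxes are given. The degenerate box CCCTATATGG is also present in the Actc1 promoter. CATTCC, the core recognised by TEAD factors, was found in Acta1 and, on the opposite strand, in Acta2, against 12.6% of windows. TATAAA was found in Acta1, against 12.4% of windows. GGGCGG, recognised by SP1, occurred 6 times in Actg1, with a pair of matches overlapping each other, and 2 times in Acta1, against 32.7% of windows with any. Boxes were thus present both in genes that were called lower (Actc1, Acta2, Actg1) and in Acta1, which was not called. Actb and Actg2, the other uncalled genes, had no promoter window and were not examined.

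Actc1 encodes cardiac alpha-actin, the main actin of the adult heart. The gene (ENSMUSG00000068614.7) lies on the minus strand of chromosome 2 from 114047282 to 114053548 (GRCm38), and 69.9% of its 1618 exonic bases are coding. It was the gene with rank 3 by base mean, at 218748 normalized counts in the authors' deposited table. Its implied mean was 326267 normalized counts in GFP cells and 111228 in dnMKL1 cells. The authors' deposited table puts its log2 fold change at -1.55 (SE 0.15), with a Benjamini-Hochberg adjusted Wald p-value of 7.7e-24. That is 2.93-fold lower, with a 95% interval of 2.40 to 3.58. Of the 140 tested genes whose base mean reached 10000, 0 had a lower log2 fold change than Actc1, and the median of that class was -0.60. Centring on that median left Actc1 at -0.96 on the log2 scale with an adjusted p-value of 2.9e-10.

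Because Actc1 is so abundant, its fall was also large in counts. Its implied mean dropped by 215039 normalized counts, in place 2 among all genes after Myh6, the alpha myosin heavy chain, which dropped by 346774. The summed implied means fell from 13330302 in GFP to 10915829 in dnMKL1, and the fall of Actc1 equals 8.91% of that net fall. Actc1 made up 2.45% of all normalized counts in GFP and 1.02% in dnMKL1 cells.

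Acta1 encodes skeletal alpha-actin, the close relative of Actc1 that the heart expresses at a low level after birth. The gene (ENSMUSG00000031972.5) lies on the minus strand of chromosome 8 from 123891769 to 123894751, with 1536 exonic bases. Its implied mean was 2249 normalized counts in GFP and 1952 in dnMKL1. In the authors' deposited table the log2 fold change was -0.20 (SE 0.23) with an adjusted p-value of 0.56. The 95% interval of the ratio reached from 63.5% to 118% of the GFP level, so a fall to the level of Actc1 lies outside it. Its sign turned under total-count scaling, to 0.08, again without passing the test. The difference between the log2 fold changes of Actc1 and Acta1 was -1.35, and its widest 95% interval was -2.08 to -0.61. This interval allows for any correlation of the genes across libraries, since it uses the sum of both SEs. Acta1 made up 0.721% of the striated pair per kb of exons in GFP and 1.81% in dnMKL1.

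Acta2, smooth muscle alpha-actin, was the second most abundant of the 6 genes. It lies on the minus strand of chromosome 19 from 34241090 to 34255590 (ENSMUSG00000035783.9), with 2196 exonic bases of which 51.5% are coding. Its implied mean was 10454 normalized counts in GFP and 4999 in dnMKL1. In the authors' deposited table this is a log2 fold change of -1.06 (SE 0.25), with an adjusted p-value of 1.9e-04. The fall was 2.09-fold, with an interval of 1.48 to 2.95. Centring on the median of genes whose base mean reached 10000 ended this call, with a log2 value of -0.47 and an adjusted p-value of 0.090. Acta2 had a wide error for its abundance: its SE corresponds to a coefficient of variation of about 27.8% between libraries, counting noise included, and only 1.86% of tested genes with base means from 1000 to 10000 had an SE as large. Whether 1 library sets the value was not tested, since the table has no values per library.

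Actg2, the smooth muscle gamma-actin of gut and bladder, was close to the limit of detection. It lies on the minus strand of chromosome 6 from 83512905 to 83536265 (ENSMUSG00000059430.14). Its base mean was 5.56 normalized counts in the authors' deposited table, and the implied means were 4.64 in GFP and 6.48 in dnMKL1. The deposited log2 fold change was 0.48 (SE 0.56) with an adjusted p-value of 0.57 in the authors' deposited table, and its interval of -0.61 to 1.57 allows both a fall and a rise. A change of Actg2 was therefore not detectable at this depth. Its log2 fold change nonetheless lay above that of Actc1 by 2.04, with a widest interval of 0.66 to 3.41.

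Actb, cytoplasmic beta-actin and a common reference gene, did not pass the test. The gene (ENSMUSG00000029580.14) lies on the minus strand of chromosome 5 from 142903115 to 142906754 with 2679 exonic bases, 42.3% of them coding. Implied means were 3043 normalized counts in GFP and 2348 in dnMKL1. Its log2 fold change of -0.37 (SE 0.22) in the authors' deposited table had an adjusted p-value of 0.20. The interval ran from 57.0% to 104% of the GFP level. The sign held under total-count scaling, at -0.09, but turned to 0.22 when centred on genes whose base mean reached 10000. Like Acta1, Actb had a wide error: their SEs correspond to a variation of 24.5% and 25.1% between libraries, against 10.5% for the median gene with a base mean from 1000 to 10000.

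Actg1, cytoplasmic gamma-actin, was lower in dnMKL1 cells. The gene (ENSMUSG00000062825.15) lies on the minus strand of chromosome 11 from 120345690 to 120348542 with 2658 exonic bases. Its implied mean was 1119 normalized counts in GFP and 404 in dnMKL1. With a log2 fold change of -1.47 (SE 0.16) in the authors' deposited table, it had an adjusted p-value of 8.7e-18. That is 2.77-fold lower, with an interval of 2.23 to 3.45, and 25 of 6515 tested genes with base means from 100 to 1000 had a lower log2 fold change. Centred on genes whose base mean reached 10000, Actg1 was still lower, at -0.87 with an adjusted p-value of 2.0e-07. The cytoplasmic pair thus came apart: the log2 fold change of Actb lay above that of Actg1 by 1.10, with a widest interval of 0.34 to 1.85.

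Much of the Actg1 transcript recurs elsewhere in the genome. Exact matches of 75-base windows were sought between the longest protein-coding transcript of each actin gene and all other annotated GENCODE transcripts, leaving out genes that overlap it in the genome. For Actg1, 53.9% of windows recurred in another gene, and the processed pseudogene Gm12715 on chromosome 4 alone held 47.8%. Actb had 2.60% such windows and Acta1 0.437%, while Actc1, Acta2 and Actg2 had 0%. With 50-base windows the shares were 55.9% for Actg1 and 14.2% for Actb. Windows shared between members of the actin family were few at 75 bases, at most 0.219%. The read length and the treatment of reads with several positions are not given in the sources used here, so both the level and the fold change of Actg1 are uncertain to that extent.

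Levels were compared per kb of exons. In GFP cardiomyocytes Actc1 had 201648 normalized counts per kb, followed by Acta2 with 4761, Acta1 with 1464, Actb with 1136, Actg1 with 421 and Actg2 with 2.98. In dnMKL1 cardiomyocytes the order was the same, with 68744 for Actc1, 2276 for Acta2, 1271 for Acta1, 876 for Actb, 152 for Actg1 and 4.16 for Actg2. Acta1 and Actb did not differ beyond their spread. The ratio of their levels was 1.29 in GFP, with a widest 95% interval of 0.835 to 1.99, and 1.45 in dnMKL1, with an interval of 0.939 to 2.24. With the longest transcript as the length, Actb came before Acta1 in GFP, at a ratio of 1.02 (0.660 to 1.57). The intervals assume that both groups contribute equally to each squared SE, which was not tested. They also leave out the recurring windows of Actg1, so its distance from Actb and Actg2 is uncertain. Within these limits, all other neighbours in the order were apart. The closest of them, Acta2 and Acta1 in dnMKL1 cells, had a ratio of 1.79 with an interval of 1.13 to 2.85, against 3.25 (2.04 to 5.17) in GFP cells.

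**Figure D3:**
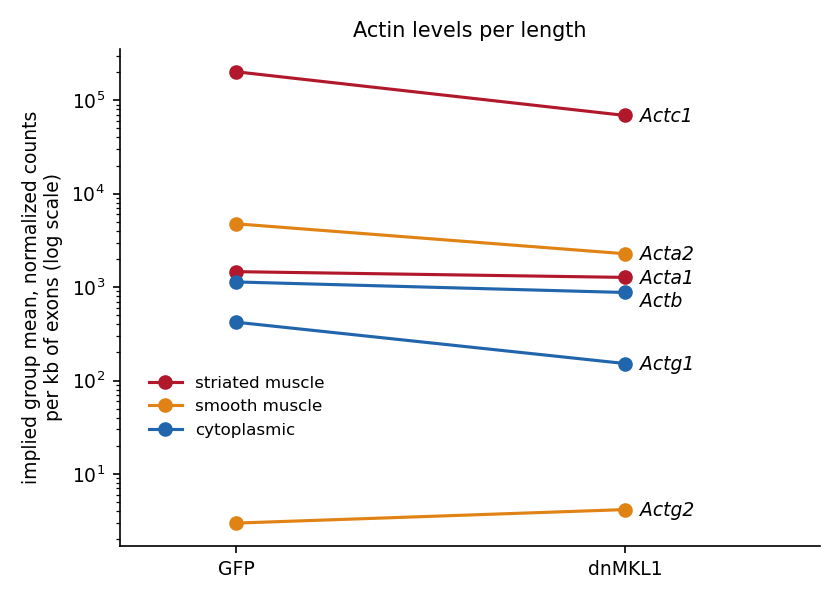
Implied group means in normalized counts per kb of exons, on a log scale, for the GFP group on the left and the dnMKL1 group on the right, with 1 line per actin gene coloured by isoform class. The order of the 6 genes is the same in both groups, and the gap between Actc1 and the rest narrows from 42.4-fold to 30.2-fold over Acta2.

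As a share of all actin transcripts per kb, Actc1 made up 96.3% in GFP and 93.8% in dnMKL1. Acta2 went from 2.27% to 3.10%, Acta1 from 0.699% to 1.73%, and Actb from 0.542% to 1.20%. Actg1 held 0.201% and 0.207%. These shares have no error, because the table does not tell how genes vary together. Summed over the 6 genes, implied means fell from 343138 to 120936 normalized counts, to 35.2% of the GFP level. Over the 5 genes besides Actc1 the sum fell from 16870 to 9709. Of the 15 pairs of actin genes, 6 had log2 fold changes whose widest interval of the difference excluded 0. All 6 set Actc1 or Actg1 against Acta1, Actb or Actg2. The difference between Actc1 and Actg1 was -0.08, with an interval of -0.69 to 0.52, and that between Actc1 and Acta2 was -0.49, with an interval of -1.27 to 0.30.

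The genes next to each actin gene were compared from the RefSeq gene table (GRCm38.p6). At both loci with the strongest falls, a long non-coding RNA gene that starts close by on the opposite strand was lower too. Such neighbours are not limited to these loci. The lncRNA gene Gm29773 starts 1 base from the start of Acta1 on the opposite strand, and the lncRNA gene Gm31355 lies 1051 bases from Acta2. Neither has a deposited value, so their change was not tested. By RefSeq, C130080G10Rik starts 1521 bases from the start of Actc1, or nearer by the GENCODE start at 114053548, and runs the other way. It had a log2 fold change of -2.47 (SE 0.17) in the authors' deposited table, with an adjusted p-value of 8.3e-43, from an implied mean of 3529 to one of 636 normalized counts. It thus fell further than Actc1, by 0.92 on the log2 scale, with a widest interval of the difference from -1.54 to -0.29. The gene 0610009L18Rik starts 183 bases from the start of Actg1 in GRCm38, and GENCODE classes it as a lncRNA of a bidirectional promoter. For it, the authors' deposited table gives a log2 fold change of -1.91 (SE 0.29) with an adjusted p-value of 1.1e-09, from 78.6 to 20.9 normalized counts as implied means. The difference from Actg1 was -0.44, with an interval of -1.33 to 0.44. The CArG box of the Actg1 promoter shown above lies between the start sites of Actg1 and 0610009L18Rik. Use of strand in the counting is not given in the sources used here, so reads of opposite strands may not be told apart where transcripts overlap.

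Of the 9 other tested neighbours, Dguok beside Actg2 was called lower and 3 were called higher. Among all tested genes, 17.4% were called lower and 16.6% higher. Downstream of Actg1, Bahcc1 (53390 bases away) was higher, the authors' deposited table giving it a log2 fold change of 0.78 (SE 0.29) and an adjusted p-value of 0.023. Stambpl1, which ends 3 bases from the end of Acta2 on the opposite strand, had -0.21 (SE 0.14) in the authors' deposited table and an adjusted p-value of 0.27. On the other side of Acta2, the nearest gene with a value was Fas, the death receptor gene. It had 0.14 (SE 0.13) and an adjusted p-value of 0.45 in the authors' deposited table. Under total-count scaling Stambpl1 turned to 0.08, and Fas was called higher at 0.42 (adjusted p-value 0.0024). For Acta1, the nearest gene with a value on 1 side was Nup133. It had -0.14 (SE 0.11) in the authors' deposited table and turned to 0.14 under total-count scaling, uncalled in both. Rab4a, on the other side of Acta1, had -0.33 (SE 0.72) in the authors' deposited table, also uncalled. For Actb, the neighbour Fbxl18 was higher at 0.41 (SE 0.16) in the authors' deposited table, with an adjusted p-value of 0.028, and Fscn1 was not called at 0.16 (SE 0.35). The genes beside Actg2 went opposite ways in the authors' deposited table, with -0.65 (SE 0.13) for Dguok and 0.54 (SE 0.09) for Stambp, both called. As background, 602 pairs of tested genes start back to back within 2000 bases. Where 1 gene of such a pair was called lower, its partner was also called lower in 30.0% of cases, against 22.7% of all genes in such pairs.

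**Figure D4:**
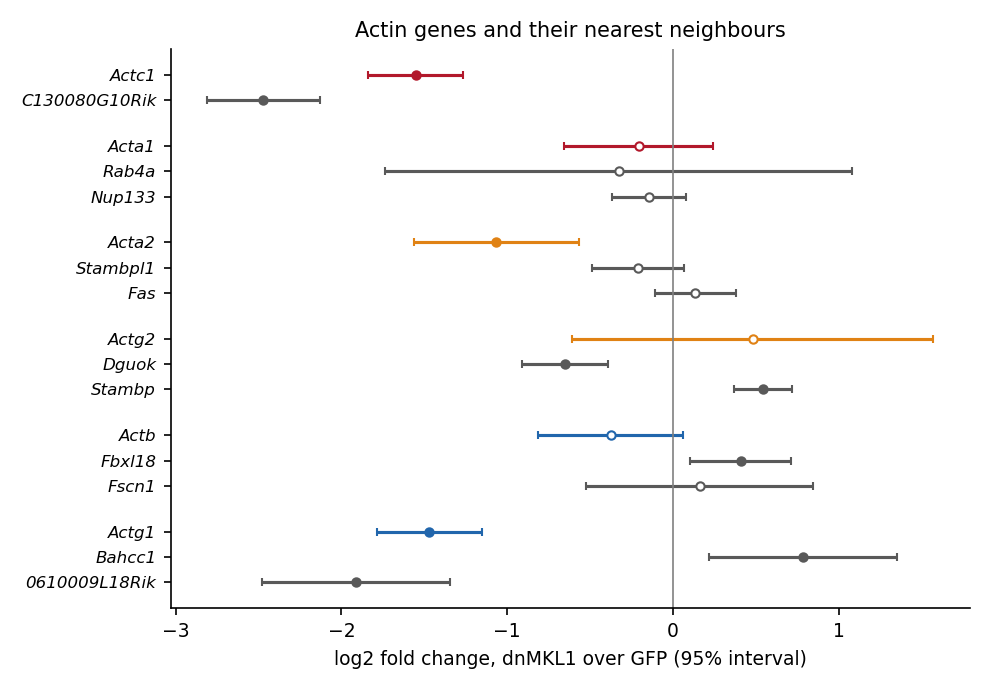
Log2 fold change (dnMKL1 over GFP, 95% interval from the deposited SE) of each actin gene in colour and of the nearest gene on each side with a value in the deposited table in grey, grouped by locus; filled points have an adjusted p-value under 0.05. C130080G10Rik beside Actc1 and 0610009L18Rik beside Actg1 lie as low as their actin gene or lower, while the neighbours of Acta1, Acta2 and Actb lie between -0.33 and 0.41.

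Partners of actin in the cardiac sarcomere mostly had smaller changes than Actc1. The list holds 13 tested sarcomere genes: 11 of the thin filament, its caps and anchors, and 2 of the thick filament, Myh6 and Mybpc3. Of the 13, 8 were called lower and 1 higher, with a median log2 fold change of -0.35. That count is read against 42.1% of genes called lower where the base mean reached 1000 and 70.7% where it reached 10000. Under total-count scaling 4 were lower and 3 higher, where 927 of all 14056 tested genes were lower and 5685 higher. By p-value, the authors' deposited table is led here by Tnnc1 at -1.54 (SE 0.17), Myh6 at -0.87 (SE 0.11) and Tnnt2 at -0.58 (SE 0.10). Tnnc1 encodes the calcium-binding troponin and Tnnt2 the troponin that binds tropomyosin. Of all tested genes, 0.882% had a lower log2 fold change than Actc1, so nearly all genes lay above it. For 12 of the 13 genes, the log2 fold change of Actc1 was lower with a widest interval that excluded 0. The exception was Tnnc1, with a difference of -0.01 (-0.63 to 0.60). Against Myh6 the difference was -0.69, with an interval of -1.20 to -0.18, and against Tpm1, the main cardiac tropomyosin, it was -0.84 (-1.38 to -0.31). Per kb of exons there were 13.3 normalized counts of Actc1 for each of Tnnt2 in GFP and 6.81 in dnMKL1, and for Myh6 these ratios were 1.77 and 1.10.

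Most smooth muscle partners had higher log2 fold changes than Acta2. Of 10 tested partners, 4 were called higher and 1 lower, with a median log2 fold change of 0.70, where 16.6% of all tested genes were higher and 17.4% lower. By p-value, those in front in the authors' deposited table are Tpm2 at 2.36 (SE 0.22), Myl9 at -1.24 (SE 0.20) and Tagln at 0.72 (SE 0.18). Tpm2 is a tropomyosin, Myl9 a regulatory myosin light chain and Tagln the actin-binding protein transgelin. Of all tested genes, 2.65% had a lower log2 fold change than Acta2, so most genes of any kind lay above it. The log2 fold change of Acta2 was below that of 9 of the 10 genes with a widest interval that excluded 0. Myl9 was the exception, with a difference of 0.18 and an interval of -0.71 to 1.07. Myh11, the smooth muscle myosin heavy chain, differed from Acta2 by -1.79 (-2.68 to -0.90).

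**Figure D5:**
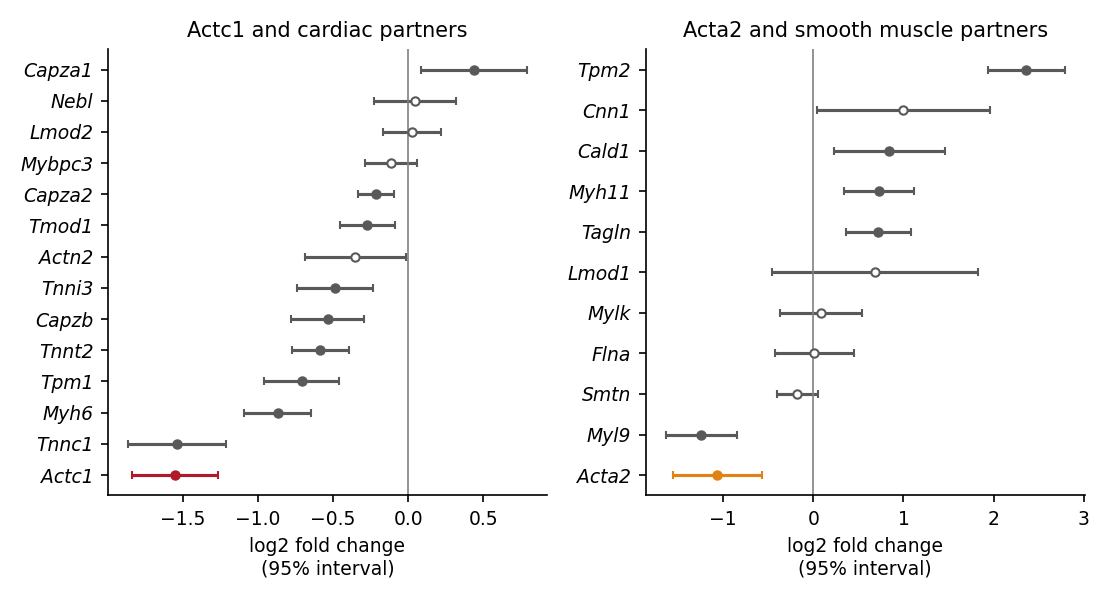
Log2 fold change (dnMKL1 over GFP, 95% interval from the deposited SE) of Actc1 and 13 cardiac partners on the left, and of Acta2 and 10 smooth muscle partners on the right; filled points have an adjusted p-value under 0.05. Actc1 lies beside Tnnc1 and below the other partners, and Acta2 lies beside Myl9 and below the others.

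Marker lists of the cell types that a sort could hold were read beside these values. All markers were detected in the authors' deposited table. The 8 cardiomyocyte markers summed to 1173358 normalized counts as implied means in GFP and 726705 in dnMKL1, with 5 called lower and 0 higher. Of all tested genes whose base mean reached 10000, as it does for each of these 8, 70.7% were called lower. The 9 markers of smooth muscle and pericytes summed to 4388 and 5766, with 3 called higher and 0 lower. In counts, that rise in the sum lies in 1 gene, Cspg4, a proteoglycan of pericytes and other cells. The authors' deposited table puts it at 2.01 (SE 0.18), and its implied means were 501 and 2019. Without Cspg4, an alternative chosen after seeing the data, the sums were 3888 and 3746, most of it from Smtn with 2914 and 2579. The fall of that reduced sum rests on Smtn, the only marker of the 9 with a negative log2 fold change (-0.18, uncalled). By gene, 8 of the 9 markers had a positive log2 fold change. Besides Cspg4, those called higher in the authors' deposited table were Myh11 at 0.73 (SE 0.20) and Tagln at 0.72 (SE 0.18). The 8 fibroblast markers summed to 3539 and 4913, with 3 called higher and 0 lower. Endothelial markers summed to 2232 and 2280 with 0 of 6 called, and macrophage markers to 143 and 127 with 1 of 6 called higher. Across all tested genes 16.6% were called higher. These counts depend on scaling. Total-count scaling gave 5 smooth muscle and pericyte markers and 6 fibroblast markers higher and 3 cardiomyocyte markers lower. It called 5685 of all 14056 tested genes higher and 927 lower. Centring on genes whose base mean reached 10000 gave 7 and 8 higher, with 1 cardiomyocyte marker lower and 2 higher. That centring called 9218 of all tested genes higher and 291 lower. The part of other cell types in the values of Acta2, Actb and Actg1 was not tested.

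The machinery that folds, caps and recycles actin changed in both directions. Among the genes that act with MKL1, the authors' deposited table lists Srf at -0.80 (SE 0.10), and gives 0.43 (SE 0.08) for Mkl2 and 0.90 (SE 0.21) for Myocd, all past the threshold. Centred on genes whose base mean reached 10000, Srf was no longer called, at -0.21 with an adjusted p-value of 0.064. Of 17 tested genes of actin folding and processing, which include the chaperonin subunits, 8 were called lower and 0 higher, with a median of -0.19. This direction rests on scaling, since 0 were lower and 8 higher under total-count scaling. That scaling called 5685 of all 14056 tested genes higher and 927 lower. By p-value, the authors' deposited table has in front Pdcl3 at -0.43 (SE 0.10), Tcp1 at -0.22 (SE 0.05) and Cct6a at -0.21 (SE 0.06), and none of the 3 stayed lower under total-count scaling. Pdcl3 was then at -0.14 with an adjusted p-value of 0.23, and Tcp1 and Cct6a turned to 0.07 and 0.08. Setd3, the enzyme that methylates a histidine of actin, had -0.22 (SE 0.08) in the authors' deposited table with an adjusted p-value of 0.017. Total-count scaling adds 0.29, more than the size of the Setd3 value, so its sign depends on scaling as well.

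Of 16 genes for monomer binding and filament turnover, 7 were called higher and 4 lower, and under total-count scaling 7 and 2. Wdr1, which helps cofilin take filaments apart, had -0.94 (SE 0.06) in the authors' deposited table, while Gsn, the severing protein gelsolin, had 1.15 (SE 0.10) and Mical1, which oxidises actin, had 0.95 (SE 0.12). Isoforms differed in sign for the profilins and cofilins, pairs chosen after their values were seen. For the profilins, the authors' deposited table gave 0.36 (SE 0.08) for Pfn1 and -0.72 (SE 0.10) for Pfn2. For the non-muscle and muscle cofilins it gave 0.69 (SE 0.14) for Cfl1 and -0.40 (SE 0.09) for Cfl2. Centring on genes whose base mean reached 10000 adds 0.60, more than the size of the Cfl2 value, so its sign depends on scaling. Among other pairs of the list, Twf1 (0.52) and Twf2 (-0.31) also differed in sign, while Tmsb4x (0.96) and Tmsb10 (0.15) did not. The shift of 0.60 is more than the size of the Twf2 value too, so that sign also depends on scaling. Cap1 (0.01) and Cap2 (-0.15) differed in sign, but neither was called. Of 16 nucleation genes, 7 were called higher and 0 lower with a median of 0.23, led in the authors' deposited table by the Arp2/3 subunits Arpc1a at 0.52 (SE 0.09), Arpc3 at 0.51 (SE 0.10) and Arpc5 at 0.53 (SE 0.11). Under total-count scaling 13 of the 16 were called higher. Of 10 tested actin-related proteins, 0 were higher and 2 lower, Actr3b at -0.75 (SE 0.13) and Actr8 at -0.16 (SE 0.07) in the authors' deposited table, but under total-count scaling 6 were higher and 1 lower, with Actr8 turned to 0.12. Actbl2, another beta-actin-like gene, was listed at 0 in the deposited table. For comparison, 34.1% of all tested genes were called in either direction, 16.6% higher and 17.4% lower. Total-count scaling called 5685 of the 14056 tested genes higher and 927 lower, which is the background for the rescaled counts.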

How the data were processed

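The authors deposited 1 table for the comparison of 5 GFP and 5 dnMKL1 libraries. Per the labels' design text, reads were aligned with STAR and counted with featureCounts. The submitters' processing notes name STAR 2.5.3a, Subread 1.5.2, CASAVA 1.8 and the build mm10. Per the labels' protocols, 10 ng of RNA was amplified over 8 PCR cycles with a SMART-Seq kit, and 500 pg of cDNA entered a Nextera XT preparation.

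Base means, as the authors deposited them, are a signal: normalized counts averaged over libraries. Fold changes and SEs were deposited as log2 values. A score, the Wald statistic, was deposited too and equals the log2 fold change over its SE (largest gap 1.14e-05). The deposited p-value belongs to that score, with a Benjamini-Hochberg adjustment over 14056 genes, the lowest base mean among them being 1.31. Called means an adjusted p-value under 0.05.

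Implied means, intervals, size factors and rescaled p-values were computed with Python 3.11.15 and scipy 1.17.1, tested on simulated data. Intervals cover the spread in the authors' model only. Positions and exon lengths came from GENCODE M21 (GRCm38), promoters and neighbours from RefSeq. Older symbols were matched through RefSeq synonyms, for 6 list genes. Members, lists and tests were chosen with earlier results of these data known. Named were all 6 actins, their neighbours, the called list members with the 3 smallest p-values, and MKL1's partners. Chosen after their values were seen were Pfn1, Pfn2, Cfl1, Cfl2, Setd3, Tpm1, Myh11, Twf1, Twf2, Tmsb4x, Tmsb10, Cap1, Cap2 and Smtn. Mybpc3 and Actbl2 were named besides these.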

Additional observations from a re-analysis of the deposited data

How the results depend on the processing

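No paired analysis was possible because the table holds no values per library, which also kept the planned count tests and the fits without each replicate from being run. The 3 calls among the actins held under every alternative run except centring on genes whose base mean reached 10000, which adds 0.60 to each log2 fold change and left 2, without Acta2. Over all genes, 2340 higher and 2452 lower calls (48.8% higher) became 5685 and 927 (86.0%) under total-count scaling and 9218 and 291, or 9509 in all (96.9%), under that centring. Requiring also a log2 change of 0.5 or more in size gave 2735 calls, 1489 of them higher and 1246 lower; requiring 1 gave 942, with 654 higher and 288 lower. Of the list genes, 53 were called, against 85 under that centring, 30 with a minimum of 0.5 and 7 with a minimum of 1. The share of Actc1 among actins, 96.3% in GFP and 93.8% in dnMKL1, was 96.2% and 93.5% with the longest transcript as length, and 95.1% and 92.0% with no length correction. With independent genes assumed, 9 of the 15 pairs of actins differed, not 6.

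Of the named genes, 45 were followed through each alternative. Those not followed were Pfn1, Pfn2, Cfl1, Cfl2, Setd3, Tpm1, Twf1, Twf2, Tmsb4x, Tmsb10, Cap1, Cap2, Smtn, Mybpc3 and Actbl2. Under total-count scaling the signs of Acta1 (0.08), Actr8 (0.12), Cct6a (0.08), Nup133 (0.14), Stambpl1 (0.08) and Tcp1 (0.07) turned, by the shift itself. Under centring on genes whose base mean reached 10000 those of Acta1 (0.39), Actb (0.22), Actr8 (0.43), Cct6a (0.38), Nup133 (0.45), Pdcl3 (0.17), Rab4a (0.27), Stambpl1 (0.39), Tcp1 (0.38) and Tnnt2 (0.01) turned. Calls were lost without a turn of sign for Pdcl3 under total-count scaling (-0.14, adjusted p-value 0.23), and under that centring for Acta2 (-0.47, 0.090), Srf (-0.21, 0.064), Actr3b (-0.16, 0.27), Dguok (-0.05, 0.73) and Ryr2 (-0.18, 0.30).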
